A study of Mus musculus with 41 samples.

Results

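The genes described here are 48 mouse genes whose products carry a cell into and through mitosis, out of 22438 genes with a row in the ribosome footprint tables and 55385 in the RNA tables. They were taken by symbol from a list ordered by function, and all 48 were found in both kinds of table and passed the filter on low counts in every comparison. The study removed Hbs1l, Pelo or Upf2 from mouse tissues or cells. Hbs1l and Pelo act together to free ribosomes that have stalled on mRNA, and Upf2 is a core factor of nonsense-mediated decay. It then sequenced ribosome-protected fragments, which count the ribosomes on each coding sequence, and in fibroblasts also total mRNA.

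Whole embryos of strain C57BL/6NJ at E8.5 were Hbs1l-/- (3 libraries, each from pooled embryos) or Wildtype (3 libraries). Cerebella of strain C57BL/6J at P14 were Atoh-Cre;Hbs1l cKO (3 mice) or carried Atoh-Cre with Hbs1l +/+ (3 mice), so the Cre was active in the granule cell lineage, and the other cells of a cKO cerebellum kept the floxed Hbs1l allele beside a null one. All cerebella and all fibroblasts carried the B6J/B6J allele of the tRNA gene n-Tr20. Mouse embryonic fibroblasts (MEFs) were primary cells of strain C57BL/6 grown from single embryos, and all of them, controls included, carried CAG-Cre ER and were given tamoxifen. Their genotypes were CAG-Cre ER; Hbs1l cKO, CAG-Cre ER; Pelo cKO, CAG-Cre ER; Upf2 cKO, and CAG-Cre ER alone as control. The Hbs1l cKO carried a floxed allele over a null one, and the other mutants were homozygous for the floxed allele. Footprints were sequenced from 3 cultures of each mutant genotype with 3 control libraries in each of 3 batches, and RNA from 3 control, 3 Hbs1l cKO, 2 Pelo cKO and 3 Upf2 cKO cultures.

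Entry into mitosis is driven by Cdk1 bound to cyclin A or B, helped by the Polo and Aurora kinases. Condensins and topoisomerase II then shape the chromosomes, kinesins build the spindle, and kinetochores tie chromosomes to it while the checkpoint holds back the anaphase-promoting complex. Most of these genes are transcribed late in the cell cycle, in G2 and M, so their mRNA in a tissue also follows the share of its cells that are dividing. In bulk samples such as these, fewer dividing cells and less RNA per dividing cell cannot be told apart.

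A pair of short promoter elements are known to time this transcription, and they are shown as background. Their link to the footprint and RNA values below was not tested. The CHR element (TTTGAA, or the variant TTTAAA) is bound by MuvB-containing complexes, and CCAAT boxes are bound by NF-Y. RefSeq promoter windows of GRCm38.p6, each from 250 bases before to 50 after a start site, were at hand for 40 of the 48 genes (42 windows). TTTGAA was found on either strand in 73.8% of these windows against 17.9% of all 32851 windows of the same length. The variant TTTAAA was in 21.4% against 13.2%, in some cases in the same window. Either form was in 81% against 27.6%, and lay within 50 bases of the start in 71.4% against 8.28%. CCAAT was in 71.4% against 37.4%, and both elements were in 66.7% against 10.7%. The E2F-type letters TTTCCCGC were in 1 of the 42 windows (2.38% against 1.07%). TTTGGCGC was in 3 of them (7.14% against 0.514%). 7 of the genes described below are shown over 160 bases up to the start site, 5′ to 3′ on the gene's own strand, with CHR and CCAAT letters on either strand in capitals.
Cdk1 (chr10:69352913-69353072, minus strand): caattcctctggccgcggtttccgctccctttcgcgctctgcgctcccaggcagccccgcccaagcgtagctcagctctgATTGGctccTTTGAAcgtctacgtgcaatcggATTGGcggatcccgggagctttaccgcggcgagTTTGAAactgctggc
Ccnb1 (chr13:100786487-100786646, minus strand): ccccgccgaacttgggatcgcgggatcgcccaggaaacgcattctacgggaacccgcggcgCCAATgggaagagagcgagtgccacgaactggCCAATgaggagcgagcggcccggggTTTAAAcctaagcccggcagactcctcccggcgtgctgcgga
Plk1 (chr7:122159275-122159434, plus strand): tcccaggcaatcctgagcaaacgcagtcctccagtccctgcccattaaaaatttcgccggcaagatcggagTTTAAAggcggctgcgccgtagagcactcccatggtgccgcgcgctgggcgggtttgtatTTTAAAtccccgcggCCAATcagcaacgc
Cdc20 (chr4:118437344-118437503, minus strand): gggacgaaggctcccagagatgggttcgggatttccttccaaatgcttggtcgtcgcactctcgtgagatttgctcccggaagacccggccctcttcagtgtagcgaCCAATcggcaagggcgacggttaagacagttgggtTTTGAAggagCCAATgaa
Kif11 (chr19:37376222-37376381, plus strand): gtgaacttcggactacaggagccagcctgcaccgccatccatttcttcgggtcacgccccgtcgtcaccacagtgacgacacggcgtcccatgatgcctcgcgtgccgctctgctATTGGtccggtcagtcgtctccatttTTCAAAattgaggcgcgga
Top2a (chr11:99024190-99024349, minus strand): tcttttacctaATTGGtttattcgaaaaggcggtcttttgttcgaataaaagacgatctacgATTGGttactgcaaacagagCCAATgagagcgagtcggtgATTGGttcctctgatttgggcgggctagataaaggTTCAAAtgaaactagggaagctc
Ndc80 (chr17:71526858-71527017, minus strand): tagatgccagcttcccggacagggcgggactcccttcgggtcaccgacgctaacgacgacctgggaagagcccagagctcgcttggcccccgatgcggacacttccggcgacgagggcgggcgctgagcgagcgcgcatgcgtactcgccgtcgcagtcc
Top2a held 4 CCAAT boxes and 1 CHR match in this stretch, Cdk1 and Plk1 held 2 CHR matches each, and Ndc80 held neither before its start. In the 50 bases after the start, which are not printed, Ndc80 held both CHR forms and Plk1 a further TTTGAA. A match here is a description of the letters and not of binding.

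Total counts were 2634480 to 7298812 per library for embryo footprints, 10919139 to 22591768 for cerebellum, 5782990 to 25607974 for MEF footprints and 22713643 to 86425762 for MEF RNA. In CPM (a gene's share of its library, from counts scaled to a common library total), footprints on Hbs1l were 2.77 to 9.07 in Hbs1l-/- embryos against 50.7 to 60.1 in Wildtype, 12.8 to 15.7 against 37.8 to 44.7 in cerebella, and 1.51 to 2.59 against 32.6 to 39.5 in MEFs. Footprints on Pelo were 2.00 to 2.98 in Pelo cKO MEFs against 31.8 to 38.4. Counts on Upf2 were higher, not lower, in the libraries labelled Upf2. They were 113.3 to 118.8 CPM against 49.2 to 58.3 in control footprints, and 30.0 to 63.0 against 15.9 to 21.5 in RNA. The counts cover the whole gene and do not separate a deleted exon. In the RNA of the same libraries 14.7% of 2945 transcripts annotated as nonsense-mediated decay targets were called higher, against 0.261% of 2296 in Hbs1l cKO and 0.139% of 2165 in Pelo cKO. The MEF control footprint libraries of the 3 batches that share a replicate number differed by close to sampling noise (chi-square per gene 1.11 to 1.19, against 4.03 to 12.4 between different numbers), so they were treated as repeat runs of 3 cultures. The 3 MEF footprint comparisons therefore share their control cultures, as the RNA comparisons do. Apart from the origin of animals and cultures given above, nothing in the labels separates biological from technical spread, so a p-value measures the spread between libraries labelled as replicates.

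In control samples the footprint level per length was highest in the embryo. Control footprints, in CPM per kilobase of coding sequence, had a median over the 48 genes of 74.4 in embryos, 25.3 in MEFs and 3.46 in cerebella. Cdk1, the kinase at the centre of mitotic entry, was the most covered gene in embryos (660 ± 46.0, SD, n = 3) and MEFs (234 ± 21.5). In cerebella the checkpoint protein Mad2l1 was highest (16.0 ± 1.33) and the separase Espl1 lowest (0.476 ± 0.166). Tissue, strain, batch and fragment size differ together here, so these levels are set side by side with no test. Summed over the 48 genes, footprints took 0.968% to 1.03% of all counts in Wildtype embryos, 0.326% to 0.429% in control MEFs and 0.0407% to 0.0455% in control cerebella.

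**Figure D1:**
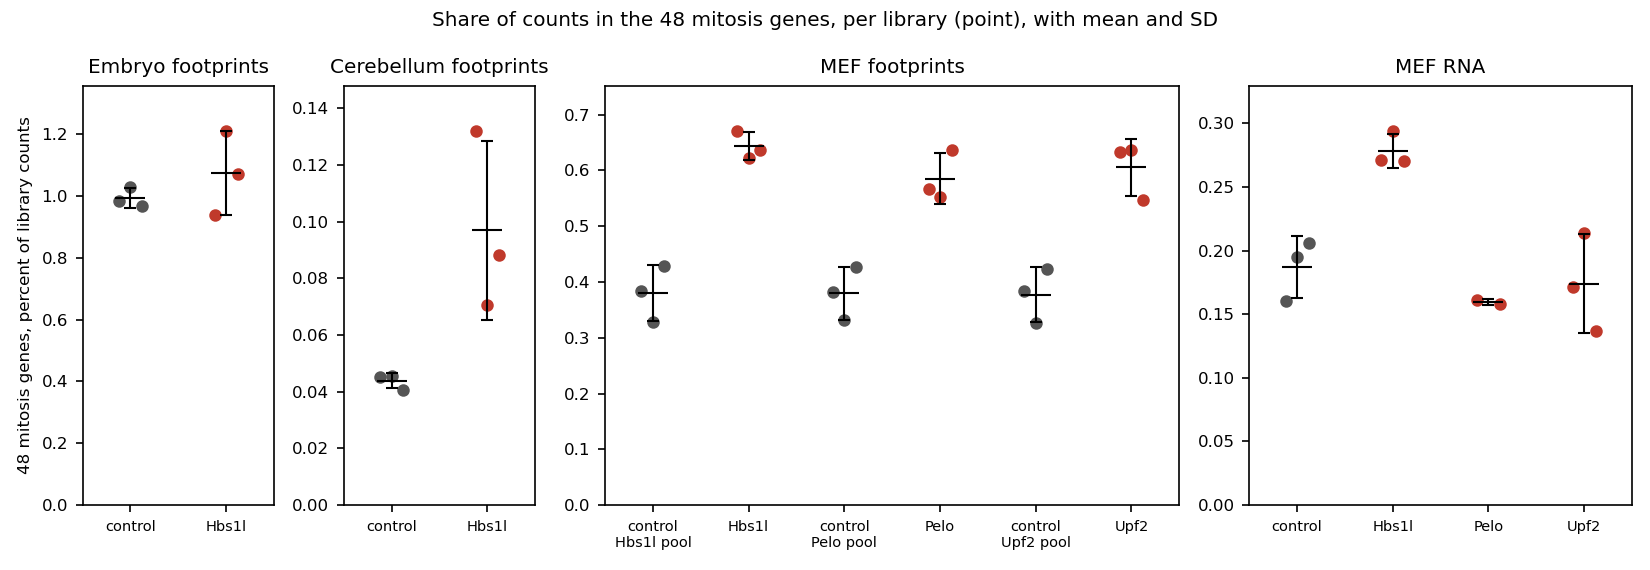
Share of all counts that fell on the 48 mitosis genes, in percent, for each library, with a point per library and the mean and SD of each group. Mutant MEF footprint libraries (0.547% to 0.671%) lie above all control MEF footprint libraries (0.326% to 0.429%), cKO cerebella (0.0706% to 0.132%) lie above control cerebella, and Hbs1l-/- embryos (0.939% to 1.21%) overlap Wildtype.

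In MEF footprints nearly every mitosis gene rose in each mutant genotype. In Hbs1l cKO 47 of 48 rose (edgeR, adjusted p at most 0.05) against 17.4% of the 11984 genes tested, with a median log2 fold change of 0.68 (1.61-fold). In Pelo cKO 46 rose against 22.9% of 12486, with a median of 0.61 (1.53-fold). For the libraries labelled Upf2, 46 rose against 22.3% of 12166, with a median of 0.63 (1.54-fold). None fell, and all 48 had a positive value in each comparison. The median over all genes tested was −0.01, 0.00 and 0.00.

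Among the kinases and cyclins all 8 genes rose in each genotype. Cdk1 footprints were 214, 187 and 225 CPM in the controls run with Hbs1l cKO and 295, 291 and 270 in Hbs1l cKO. They were 288, 292 and 303 in Pelo cKO and 275, 298 and 262 in the libraries labelled Upf2. All mutant libraries thus lay above all controls, whose highest value over the 3 batches was 225. The log2 fold changes were 0.45 ± 0.07 (SE), 0.52 ± 0.07 and 0.41 ± 0.07. Ccnb1, cyclin B1, was much lower, at 10.1, 9.91 and 9.02 in controls against 15.2, 16.3 and 12.3 in Hbs1l cKO. It reached 18.7, 18.9 and 19.4 in Pelo cKO and 19.6, 21.6 and 16.8 in the libraries labelled Upf2. Its change was 0.58, 0.92 and 0.95. Plk1, the Polo kinase, was 90.8, 81.0 and 97.1 in controls and 160, 138 and 137 in Hbs1l cKO. Its rise was 0.70 in Hbs1l cKO, 0.75 in Pelo cKO and 0.46 in the libraries labelled Upf2. Ccna2, cyclin A2, rose by 0.83, 0.72 and 0.75, while Aurka, the Aurora kinase of the spindle poles, had among the smallest rises of the group (0.46, 0.36 and 0.40).

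Of the 7 checkpoint and anaphase genes all rose in Hbs1l cKO and Pelo cKO and 6 rose in the libraries labelled Upf2. Bub1b, which inhibits the anaphase-promoting complex, was 66.1, 56.6 and 74.7 CPM in controls and 125.6, 109 and 112 in Hbs1l cKO. It was 109, 97.1 and 118 in Pelo cKO and 107, 105 and 101 in the libraries labelled Upf2. No mutant library overlapped a control, and the changes were 0.82, 0.85 and 0.72. Espl1, separase, which cuts cohesin, rose by 0.97, 0.91 and 0.87. Cdc20, the activator of the complex, rose by 0.50, 0.53 and 0.37. The exception was Sgo1, shugoshin, at 0.29 ± 0.17 in the libraries labelled Upf2 (edgeR adjusted p = 0.19).

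The 4 genes of the chromosomal passenger complex rose in all 3 genotypes. Its kinase Aurkb was 26.6, 22.5 and 31.8 CPM in controls against 49.6, 45.1 and 47.2 in Hbs1l cKO. The groups did not overlap, with a change of 0.82 ± 0.11. The rise was 0.80 in Pelo cKO and 0.77 in the libraries labelled Upf2. Birc5, survivin, rose by 0.57, 0.80 and 0.65, Incenp, the scaffold, by 0.68, 0.63 and 0.71, and Cdca8, borealin, by 0.53, 0.59 and 0.71.

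Of the 7 kinesins, motors that move along microtubules, all rose in Hbs1l cKO and in the libraries labelled Upf2. Kif11, which pushes spindle poles apart, was 77.5, 67.0 and 89.0 CPM in controls and 152, 137 and 149 in Hbs1l cKO. It was 129, 119 and 144 in Pelo cKO and 119, 129 and 108 in the libraries labelled Upf2. The changes were 0.91, 0.73 and 0.63, with no overlap. Kif15, a motor that works beside Kif11, had the largest rise among kinesins in each genotype (1.00, 0.78 and 1.02). Kif18a, which limits chromosome movement, did not pass in Pelo cKO (0.33 ± 0.14, edgeR adjusted p = 0.080).

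Centromere and kinetochore genes held both the largest and the smallest values. Cenpf, a large protein of the outer kinetochore, was 66.8, 63.2 and 69.3 CPM in controls and 147, 132 and 143 in Hbs1l cKO. It was 104, 109 and 128 in Pelo cKO and 158, 156 and 138 in the libraries labelled Upf2. Its changes of 1.08 ± 0.07, 0.79 ± 0.09 and 1.21 ± 0.07 gave the largest value of all 48 in Hbs1l cKO and the libraries labelled Upf2. Spc24, a subunit of the Ndc80 complex, rose by 1.06, 1.02 and 0.88. Spc25, its partner in the same complex, was not called in any genotype, at 28.0, 26.3 and 37.2 in controls and 36.0, 32.2 and 35.3 in Hbs1l cKO. These groups overlap, and its changes were 0.19, 0.18 and 0.02 (edgeR adjusted p = 0.25, 0.33 and 0.93). Ndc80 itself rose by 0.69, 0.43 and 0.46, Nuf2 by 0.63, 0.51 and 0.62 and Knl1, which docks checkpoint proteins, by 0.80, 0.47 and 0.82.

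All 7 chromosome structure genes rose in each genotype. Mki67, which coats mitotic chromosomes and gives the Ki-67 antigen, was 168, 145.5 and 199 CPM in controls and 388, 326 and 357 in Hbs1l cKO. It was 349, 334 and 388 in Pelo cKO and 352, 369 and 285 in the libraries labelled Upf2. Every mutant library lay above every control, with changes of 1.07, 1.02 and 0.95. Top2a, which untangles DNA, rose by 0.92, 0.67 and 0.89. The condensin subunits Smc2, Smc4, Ncapd2, Ncapg and Ncaph rose by 0.60 to 0.94 in Hbs1l cKO, 0.42 to 0.75 in Pelo cKO and 0.59 to 0.80 in the libraries labelled Upf2.

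The 7 genes of spindle assembly, the midzone and cytokinesis rose in each genotype too. Prc1, which bundles midzone microtubules, was 101.5, 92.0 and 128 CPM in controls and 186, 163 and 174 in Hbs1l cKO, a change of 0.71 ± 0.10 with no overlap. Its change was 0.61 in both other genotypes. Anln, anillin of the contractile ring, had the highest control level of this group in CPM (285, 266 and 329) and rose by 0.57, 0.36 and 0.38. Ect2, which is needed for cytokinesis, rose by 0.69, 0.33 and 0.53. In Pelo cKO its groups overlapped.

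**Figure D2:**
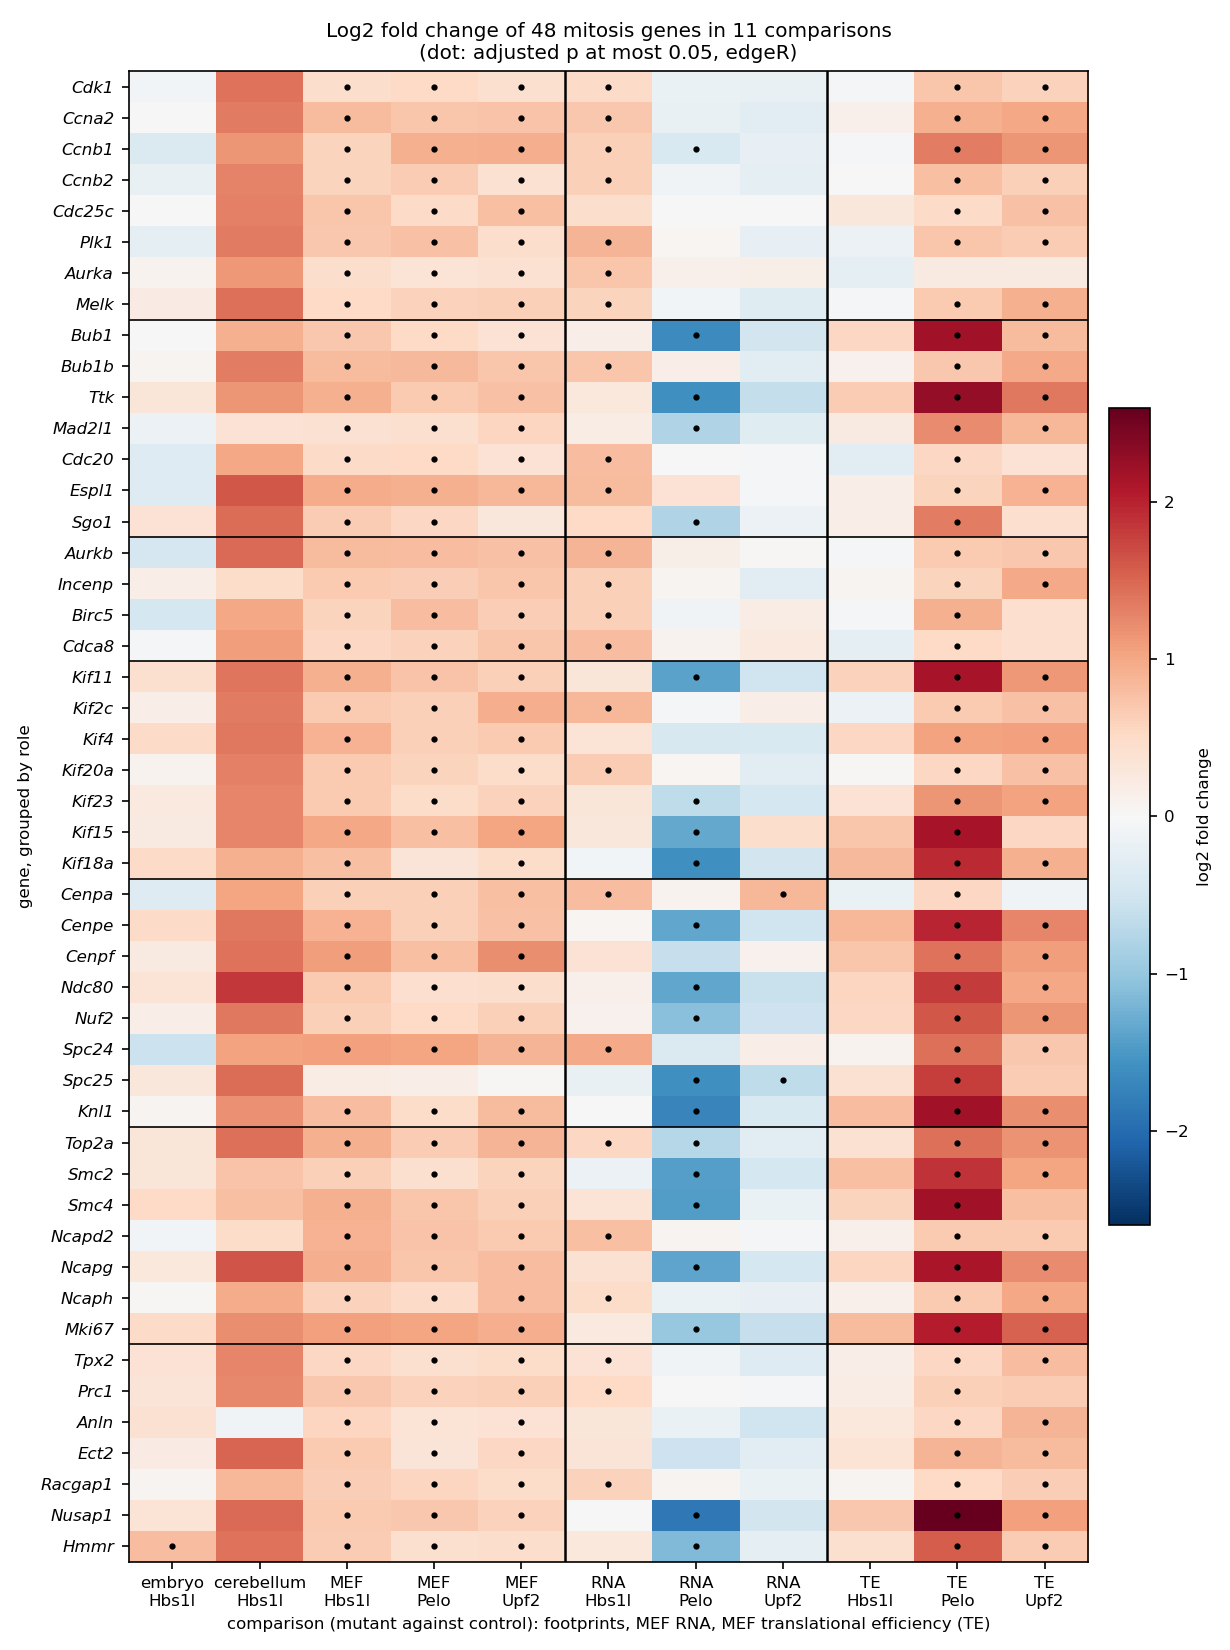
Log2 fold change of each of the 48 genes, grouped by role, as colour (red higher, blue lower in the mutant) in every comparison of mutant with control, translational efficiency (TE) included, with a dot on called genes (edgeR adjusted p at most 0.05). MEF footprints are positive for all 48 genes in each genotype, cerebellum footprints for 47, and embryo footprints for 35, while MEF RNA in Pelo cKO is negative for 34.

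The size of the footprint rise was then compared between genotypes. In the difference of Pelo cKO and Hbs1l cKO effects no gene was called by edgeR, the median difference was −0.10, and 2 genes were lower at an unadjusted p under 0.05 against 8.96% of all genes. In the libraries labelled Upf2 against Hbs1l cKO none was called either (median −0.10, with 1 gene higher and 0 lower at an unadjusted p under 0.05, against 10.1% and 9.77% of all genes). Against Pelo cKO 1 gene passed, where 6.18% of all genes were higher. This was Cenpf, whose rise was larger by 0.42 in the libraries labelled Upf2 (edgeR adjusted p = 0.035), and it did not pass in 9 of 20 alternative fits. Leaving out 1 library gave 0 in most cases, namely without control replicate 1 of the Pelo batch, without any 1 control of the Upf2 batch, or without replicate 1 or 2 of either mutant, and 2 without replicate 3 of the libraries labelled Upf2. These tests treat the control runs of each batch as separate libraries although they share cultures.

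Other cell cycle genes were read from lists to place these values. S phase genes (41 tested) rose in 34, 35 and 38 cases and fell in 0, 1 and 0, for example the helicase subunit Mcm2 by 0.54, 0.59 and 0.56. Of 78 other mitotic genes 58, 59 and 56 rose and 2, 1 and 1 fell. Among 14 subunits of the anaphase-promoting complex, which are present through most of the cycle, 2, 0 and 4 rose and 2 fell in each genotype, where 16.7%, 21.2% and 21.1% of all genes tested fell. Of 12 genes of cohesin and its regulators 7, 5 and 6 rose and none fell. Of 6 G1 cyclins and kinases 1 rose in each genotype, Cdk2, and 2, 1 and 4 fell, with medians of −0.14, −0.17 and −0.25. Ccnd2, cyclin D2, fell by −0.44, −0.56 and −0.70. Among 21 regulators that act on these promoters, 8 of 19 tested, 7 of 21 and 7 of 20 rose, and 2, 3 and 2 fell. Foxm1, an activator of G2 and M genes, rose by 0.48, 0.58 and 0.54, and Mybl2 by 0.80, 1.11 and 0.81. Of the CDK inhibitors 4 of 6 tested, 4 of 7 and 3 of 7 fell and none rose, while 1, 3 and 3 had positive values that did not pass. Those that fell in all 3 genotypes were Cdkn2a by −1.70, −2.64 and −2.31, Cdkn2b by −1.32, −1.77 and −0.88, and Cdkn1a by −0.45, −0.52 and −0.46.

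Genes from marker lists of other cells moved in the same libraries. Of 6 macrophage markers 5, 6 and 3 rose, and their summed footprints were 174 to 234 CPM in Hbs1l cKO and 398 to 567 in Pelo cKO, against at most 135 in the controls of both. The sum was 132 to 167 in the libraries labelled Upf2 against 102 to 130. Of 8 cardiomyocyte markers 5, 6 and 3 fell, with sums of 19.3 to 65.2 in Hbs1l cKO and 30.1 to 134 in the libraries labelled Upf2, against 58.3 to 100.4 in controls, and with every Pelo cKO sum below the lowest control. Endothelial markers (6 genes) summed to 38.6 to 43.5, 25.4 to 32.7 and 53.7 to 61.0 against at least 69.4 in controls. Of 3, 4 and 3 tested, 2, 2 and 1 fell and 0, 1 and 1 rose. Cerebellar glial markers (9 genes) summed to 24.8 to 34.3, 34.8 to 56.4 and 44.1 to 58.4 against at most 24.5 in controls. Of 4, 6 and 4 tested, 1, 4 and 2 rose and none fell, with 2, 4 and 2 positive values. The decidual list (8 genes) shares Dcn with the fibroblast list. Its sums were 319 to 362 in Hbs1l cKO against 525.5 to 644 in controls. In Pelo cKO the sums were 457 to 486 against 509 to 665. In the libraries labelled Upf2 they were 484 to 521 against 523 to 672. Of 6 tested 2, 1 and 2 fell and 1, 2 and 1 rose. Fibroblast markers were abundant in all libraries (46910 to 57580 CPM summed over 12 genes), with 9, 8 and 9 of 12 risen and 1, 1 and 2 fallen. Granule neuron markers (9 genes) summed to 21.45 to 24.6 in Hbs1l cKO against 35.4 to 50.4 in controls. In Pelo cKO the sums were 15.85 to 19.3 against 34.9 to 48.15, and those of the libraries labelled Upf2 overlapped the controls. Only 2, 3 and 3 of these genes were tested, and 2 fell in each genotype. Whether these lists stand for other cells in the cultures was not tested, nor was their part in the mitosis gene values.

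MEF RNA did not follow the footprints in all genotypes. In Hbs1l cKO 24 of 48 genes rose against 12.7% of 15318, and none fell against 10.4%, with a median of 0.46. With limma on log2(TPM + 1) 15 rose there, against 5.51% of all genes. In Pelo cKO none rose against 15.5% of 14705 and 21 fell against 16.6%, with a median of −0.38. In the libraries labelled Upf2 the median was −0.28, with 1 gene higher against 13.2% of 15983 and 1 lower against 6.76%. That median was −0.43 without their replicate 2 and −0.12 without their replicate 3.

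Genes from these marker lists moved in the RNA libraries as well. In Hbs1l cKO macrophage markers summed to 131 to 174 CPM against 73.0 to 99.2 in controls, with 4 of 6 risen. Cardiomyocyte markers summed to 17.9 to 31.8 against 37.5 to 56.9 with 5 of 8 tested fallen, endothelial markers to 15.7 to 18.7 against 28.4 to 36.4 with 2 of 4 fallen, and decidual markers (8 genes) to 331 to 383 against 523 to 621 with 2 of 6 fallen and 1 risen. In Pelo cKO fibroblast markers summed to 21220 to 22110 against 12210 to 16050, with 3 of 12 risen, macrophage markers to 104 to 146 against 71.7 to 98.9, with 2 of 6 risen, and cardiomyocyte markers to 32.6 to 35.6 against 38.1 to 56.7, with 2 of 8 fallen. Endothelial markers in the libraries labelled Upf2 summed to 20.4 to 27.9 against 28.8 to 37.0, with 1 of 4 fallen, while their macrophage, cardiomyocyte and fibroblast sums overlapped the controls. Whether these lists stand for other cells was not tested here either, nor was their part in the RNA values.

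In Hbs1l cKO the RNA medians by role were highest for the passenger complex (0.71) and the kinases and cyclins (0.62). Plk1 RNA was 73.6, 81.3 and 102 CPM in controls and 169.5, 152 and 152 in Hbs1l cKO, a change of 0.88 ± 0.13 (edgeR adjusted p = 0.0026). Cdc20 was 109, 102 and 108 against 208, 169 and 180, and Spc24 was 12.4, 11.97 and 14.4 against 29.6, 24.7 and 22.7. None of these overlapped, and Spc24 had the largest RNA change of all (0.98 ± 0.13). Of the 8 kinases, cyclins and phosphatase 7 rose and of the passenger complex all 4, against 2 of 7 kinesins and 2 of 8 kinetochore genes. The difference between roles was not tested, and the RNA changes ran with GC content, as given below. Cdk1 (0.49), Ccnb1 (0.62), Aurkb (0.88), Bub1b (0.73), Top2a (0.54) and Prc1 (0.53) rose as well. Kif11 (0.32), Ndc80 (0.13), Mki67 (0.26) and Cenpf (0.37) did not pass, and Knl1 (−0.01), Nusap1 (−0.02) and Kif18a (−0.08) were close to 0.

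In Pelo cKO the RNA changes were graded, from −1.86 to 0.37 on the log2 scale. Nusap1, which bundles spindle microtubules, was 11.6, 13.2 and 15.4 CPM in controls and 3.84 and 3.55 in Pelo cKO, a change of −1.86 ± 0.16 (edgeR adjusted p = 0.00081). Bub1, a checkpoint kinase, was 18.4, 20.5 and 20.6 against 7.25 and 5.29, and Kif11 was 14.4, 20.6 and 19.2 against 7.83 and 5.89. Both Pelo cKO libraries lay below all controls for these 3 genes. Cdk1 was 96.0, 93.9 and 107 against 80.3 and 95.3, Plk1 was 72.2, 82.7 and 102 against 85.8 and 92.3, and Cdc20 was 107, 104 and 107 against 105 and 108. These overlap, with changes of −0.18, 0.05 and 0.00. By role, 5 of 8 kinetochore genes fell (Spc25 by −1.60, Knl1 by −1.71, Ndc80 by −1.36), 5 of 7 chromosome structure genes (Smc4 by −1.45), 4 of 7 kinesins and 4 of 7 checkpoint genes. Of the other kinases and cyclins only Ccnb1 fell (−0.39), and Top2a (−0.74) and Mki67 (−0.99) fell too. Cenpf did not pass (−0.60, edgeR adjusted p = 0.089), nor did Bub1b (0.18), Prc1 (0.00) or any gene of the passenger complex (Aurkb 0.15). Outside the 48, 10 of 12 cohesin genes fell and 1 rose, with Smc3 at −1.64 and Stag2 at −1.82. Of 78 other mitotic genes 25 fell and 4 rose, of 41 S phase genes 12 fell and 2 rose (median −0.10), and of 14 subunits of the anaphase-promoting complex 5 fell and none rose. Of the 21 promoter regulators 2 fell and 6 rose, and 1 of 7 CDK inhibitors and 1 of 6 G1 genes fell. With limma on log2(TPM + 1), 11 of the 48 fell against 5.58% of all genes and the median was −0.18. Leaving out 1 library gave 17 to 25.

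In the libraries labelled Upf2 the 2 called genes were both centromere or kinetochore genes. Cenpa, the histone H3 variant of centromeres, was 43.0, 40.2 and 38.6 CPM in controls and 61.5, 83.5 and 74.9 in those libraries, a change of 0.86 ± 0.13 (edgeR adjusted p = 0.0011). Spc25 was 16.0, 12.9 and 14.8 against 11.1, 9.65 and 6.84, a change of −0.66 ± 0.18 (adjusted p = 0.029). Neither overlapped its controls. The other genes that stand for each role were not called, from Mki67 (−0.60) and Ndc80 (−0.57) through Cdk1 (−0.20) and Plk1 (−0.22) to Aurkb (0.04) and Cenpf (0.11). The count of genes that fell was 6 with DESeq2, against 10.1% of all genes, and 10 with no filter on low counts, against 3.69%. It was 0 without control replicate 2, control replicate 3 or replicate 3 of the libraries labelled Upf2, and 2 without their replicate 2. The count that rose was 2 without replicate 3 of those libraries.

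Translational efficiency, the change of footprints relative to RNA in one model over both, differed between the genotypes in its count of calls. In Hbs1l cKO edgeR called 0 of 48 (0.0168% of 11907 genes were called higher), with a median of 0.21. The median was 0.12 without footprint control replicate 2 and 0.34 without footprint control replicate 3. At an unadjusted p under 0.05, 17 were higher and 1 lower, against 8.63% and 8.71% of all genes. DESeq2 called 5 higher against 2.29% of all genes, and edgeR called 3 higher without RNA control replicate 1 against 0.411%. In Pelo cKO 47 rose against 24.3% of 12143, with a median of 0.99, and Aurka was the exception (0.24 ± 0.14, edgeR adjusted p = 0.17). The largest values were those of Nusap1 (2.58), Ttk, a checkpoint kinase (2.29), Knl1 (2.19), Smc4 (2.19) and Bub1 (2.18). For the libraries labelled Upf2, 38 rose against 8.47% of 12054, with a median of 0.84, from −0.08 for Cenpa to 1.53 for Mki67. The 10 that did not pass there were Aurka, Cdc20, Sgo1, Birc5, Cdca8, Kif15, Cenpa, Spc25, Smc4 and Prc1. Footprints and RNA came from separate dishes, and the RNA comparisons share their controls.

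**Figure D3:**
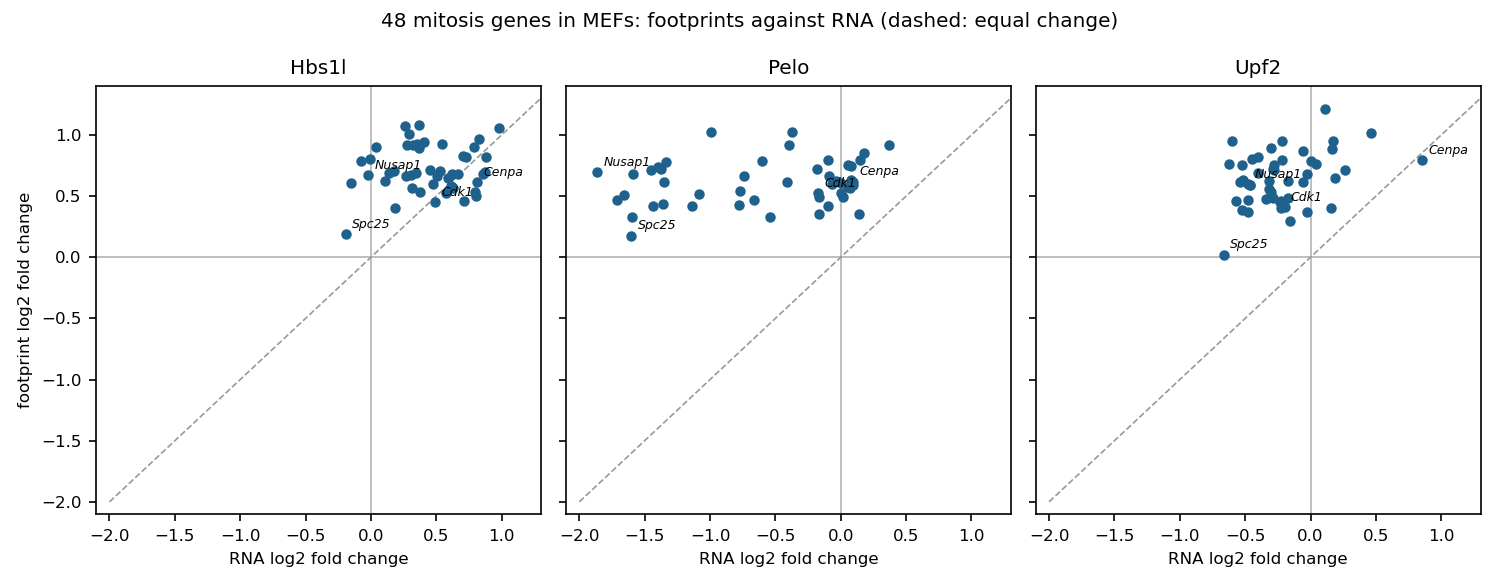
Log2 fold change of footprints (vertical) against that of RNA (horizontal) for each of the 48 genes, 1 panel per MEF genotype, with a dashed line where both are equal. In Pelo cKO footprints are positive for all 48 genes while RNA runs from −1.86 (Nusap1) to 0.37 (Espl1), and in Hbs1l cKO most genes are positive on both axes.

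The RNA changes ran with the base composition of the transcripts. The coding transcript with the longest coding sequence (Gencode M21) had a GC content of 37.7% (Knl1) to 56.1% (Espl1) over the 48 genes, with a median of 46.0% against 49.3% for all genes. Across the 48 genes, which share libraries and are not independent, the Spearman correlation of the RNA change with GC was 0.79 in Hbs1l cKO, 0.84 in Pelo cKO and 0.51 in the libraries labelled Upf2, against 0.32, 0.38 and 0.36 across all genes. For MEF footprints it was −0.14, 0.35 and 0.07, and for translational efficiency −0.74, −0.72 and −0.44. The changes also ran with transcript length, for which no value across all genes was computed. Over the 48 genes that correlation was −0.43, −0.35 and −0.32 for RNA and 0.63, 0.36 and 0.49 for translational efficiency. For MEF footprints it was 0.43, 0.01 and 0.19. In Pelo cKO the 24 genes of lower GC had a median RNA change of −1.34 and 19 of them fell, while the 24 of higher GC had a median of 0.01 and 2 fell. In Hbs1l cKO 4 of the lower and 20 of the higher genes rose, with medians of 0.28 and 0.69.

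A trend of counts with GC was then removed from each library, a setting chosen after seeing the data. In Hbs1l cKO 40 genes then rose in RNA in place of 24, against 16.1% of all genes in that fit. In Pelo cKO 19 then fell in place of 21, against 16.6%, with a median of −0.20. The lower and higher GC genes there had medians of −0.63 and −0.08. The Spearman correlation of the RNA change with GC was then 0.44 in Hbs1l cKO, 0.51 in Pelo cKO and 0.07 in the libraries labelled Upf2. Translational efficiency then rose for 47 genes in Pelo cKO against 23.1% and for 42 in the libraries labelled Upf2 against 11.9%. Its median over the 24 genes of lower GC went from 1.8 to 1.17 in Pelo cKO, and over those of higher GC from 0.68 to 0.77. In Hbs1l cKO the lower GC median went from 0.54 to 0.25, and the higher stayed at 0.08. In the libraries labelled Upf2 they went from 0.97 to 0.86 and from 0.73 to 0.75. Whether the relation comes from library preparation or from the cells was not tested.

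**Figure D4:**
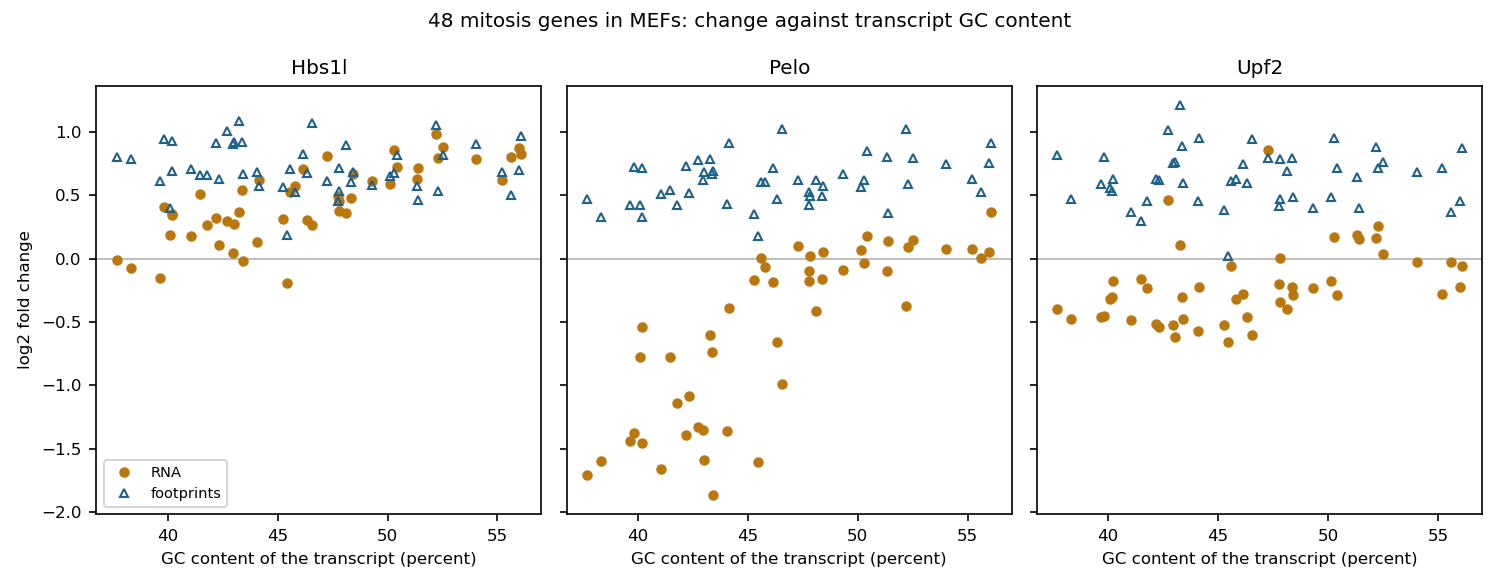
Log2 fold change of each of the 48 genes (vertical) against the GC content of its coding transcript in percent (horizontal), with a panel for each MEF genotype, filled points for RNA and open triangles for footprints. RNA changes rise with GC in each genotype (Spearman 0.79, 0.84 and 0.51), while footprint changes lie above 0 along the whole range.

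In cerebella at P14, when granule cell precursors are completing their divisions, footprints on the 48 genes were higher in cKO with a median log2 fold change of 1.29 (2.44-fold), yet none passed the edgeR threshold. For 47 genes the value was positive, and 46 were higher at an unadjusted p under 0.05, against 7.14% of 14430 genes. For 45 genes all 3 cKO libraries lay above all 3 controls, against 9.38% of all genes. Across all genes only 9 passed, with 0.0554% called higher, and the lowest adjusted p of the 48 was 0.071 (Spc24). DESeq2 called 40 of the 48 higher, against 2% of 14141 genes with an adjusted p.

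Cdk1 was 12.6, 12.7 and 13.6 CPM in control cerebella and 43.8, 22.1 and 37.6 in cKO, a difference of 1.42 ± 0.23 (edgeR adjusted p = 0.088). Ndc80 was 1.58, 1.84 and 2.00 against 10.1, 3.37 and 5.98, the largest difference of the 48 (1.85 ± 0.38, adjusted p = 0.11). Top2a was 33.4, 32.2 and 20.6 against 119, 50.3 and 60.7, a difference of 1.43 ± 0.33. In each of these the cKO libraries were apart from the controls but also far from each other, with replicate 1 highest. Anln was the exception, at 31.4, 31.3 and 28.8 in controls and 29.8, 27.5 and 28.1 in cKO (−0.10 ± 0.11). Mad2l1 (0.38), Incenp (0.48) and Ncapd2 (0.48) had the smallest positive differences. The other genes that stand for each role lay between 1.01 (Cdc20) and 1.47 (Aurkb), with Plk1 at 1.34 and Cenpf at 1.41. Without cKO replicate 1 the median was 0.94. Without cKO replicate 2 edgeR called 15 higher against 0.541% of all genes, and without control replicate 3 it called 11 against 1.68%.

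Markers of the dividing granule cell precursors were higher in the same libraries. Their summed footprints over 9 genes were 507 to 555.5 CPM in cKO against 287 to 379.5 in controls, and 2 of the 9 rose, Insm1 (1.42, edgeR adjusted p = 0.015) and Sfrp1 (1.47, adjusted p = 0.013). Atoh1, the factor that defines them, was at 1.51 (adjusted p = 0.10). Granule neuron markers (9 genes) summed to 4883 to 6820 against 6412 to 8289, Purkinje cell markers (6 genes) to 4609 to 6152 against 6395 to 12320, and glial markers (9 genes) to 10510 to 12450 against 13020 to 13970, with none of them called. S phase genes had a median of 0.73, with 38 of 41 positive and none called. The part of cell numbers in the mitosis gene values was not tested.

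**Figure D5:**
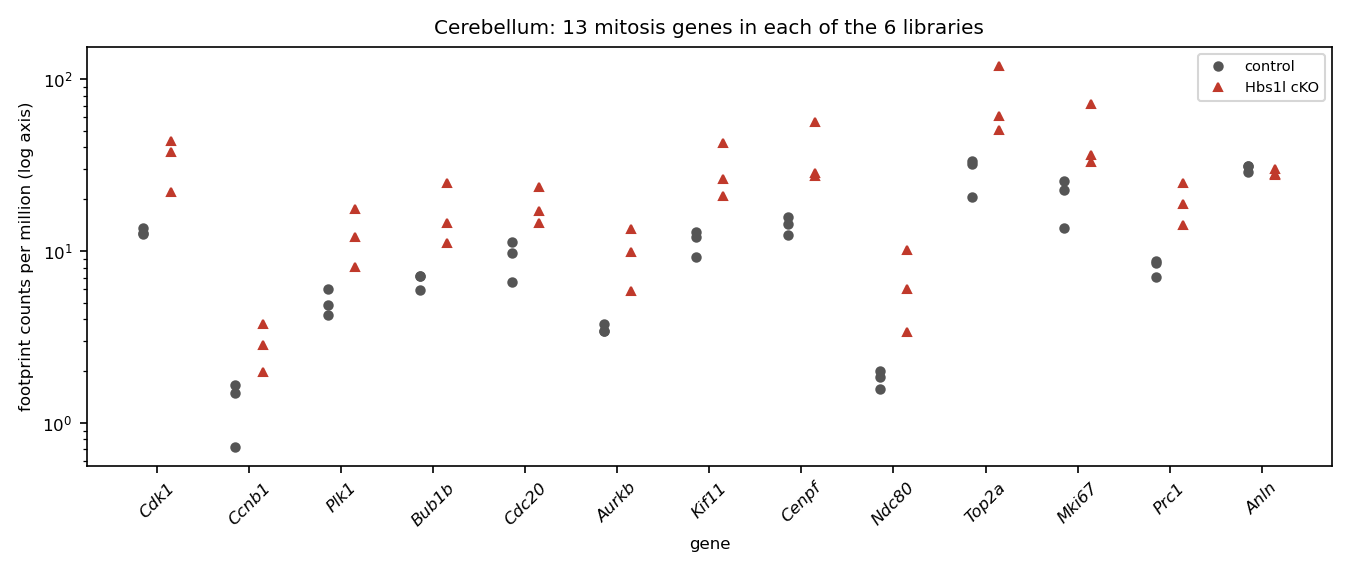
Footprints on mitosis genes in each cerebellum library, in CPM on a log axis, with control and cKO libraries side by side. The cKO libraries lie above the controls for most genes shown, and cKO replicate 1 is often the highest.

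In E8.5 embryos 1 of the 48 genes was called. Hmmr, a spindle protein, rose from 92.4, 92.5 and 92.4 CPM in Wildtype to 125, 212 and 149 in Hbs1l-/- (0.81 ± 0.19, edgeR adjusted p = 0.045). It was the only gene called, against 0.92% of 11416 genes called higher and 0.955% called lower. The median was 0.18, with 35 genes positive, and 9 were higher and 6 lower at an unadjusted p under 0.05, against 9.37% and 9.21% of all genes. The count depended on single libraries. Without Hbs1l-/- replicate 1, 16 genes rose against 9.65% of all genes and 5 fell against 10.6%, with a median of 0.31, and without any 1 of the other 5 libraries none passed, with a median of 0.03 without Hbs1l-/- replicate 2.

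By role the embryo values differed in sign, with none called but Hmmr. Of the 47 genes not called, 13 changed sign in at least 1 alternative fit. All 7 kinesins and all 7 spindle and cytokinesis genes had positive values. Kif11 was 250.1, 284 and 227 CPM in Wildtype and 244, 441 and 327 in Hbs1l-/- (0.41 ± 0.19, edgeR adjusted p = 0.27), and Mki67 was 266, 367 and 278 against 260, 660 and 364 (0.49 ± 0.26, adjusted p = 0.32). In both the groups overlap, and replicate 2 is far above the others. Of the passenger complex 3 of 4 values were negative, among them Aurkb at 153, 134 and 136 against 125, 90.9 and 96.2 (−0.44 ± 0.16, adjusted p = 0.18) and Birc5 at −0.46. Spc24, at 211, 192 and 214 against 166, 133 and 120.5, had the lowest value (−0.55 ± 0.15, adjusted p = 0.084). Cdk1 (−0.07) and Bub1b (0.08) were close to 0, Ccnb1 (−0.38), Plk1 (−0.23) and Cdc20 (−0.34) were negative, and Ndc80 (0.36), Top2a (0.31), Prc1 (0.34) and Cenpf (0.24) positive, none of them called. In all, 6 of the 48 were lower in every Hbs1l-/- library than in any Wildtype library (Plk1, Cdc20, Espl1, Aurkb, Birc5 and Spc24), against 12.3% of all genes, and 3 were higher (Kif4, Tpx2 and Hmmr), against 11.4%.

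Other values moved in these libraries too. The Spearman correlation of the change with GC over the 48 genes was −0.56, against −0.38 across all genes. With the GC trend removed the median over the 48 genes was 0.06 and none passed. Of 8 trophoblast markers tested 6 rose, with sums over the 12 listed of 329 to 1680 CPM in Hbs1l-/- against 154 to 214.5. Of 9 cardiomyocyte markers 8 fell, with sums of 948 to 1399 against 2315 to 2784, and of 8 erythroid markers 4 fell, with sums of 3200 to 8746 against 13190 to 17230. Of 6 endothelial markers 1 rose and none fell, with 3 positive and a median of 0.02. Their sums were 535 to 705 against 463 to 487. The part of all these markers in the mitosis gene values was not tested.

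Tests of the difference between tissues bore on whether loss of Hbs1l moved these genes alike. The embryo value was lower than the MEF value for 46 of 48 genes, with a median difference of −0.55, and 17 passed against 3.26% of 13062 genes. The 17 include Spc24 (−1.60), Espl1 (−1.30), Aurkb (−1.24) and Birc5 (−1.02). The count was 10 without MEF control replicate 1 or 2 or Hbs1l cKO MEF replicate 1, and 27 without Hbs1l-/- embryo replicate 2. It was 28 with the GC trend removed, against 4.5% of all genes. Against the cerebellum the embryo value was lower for 47 genes (Anln was the exception), with a median difference of −1.12, and 7 passed against 0.465% of 14624. These were Cdk1 (−1.49), Ccnb2, cyclin B2 (−1.49), Plk1 (−1.59), Espl1 (−1.97), Aurkb (−1.92), Birc5 and Spc24 (−1.59). Leaving out any 1 of the 12 libraries moved that count by over 1.5 times. It was 12, 15 and 24 without control cerebellum replicate 3, Hbs1l-/- embryo replicate 1 and cKO cerebellum replicate 2, and 1 to 4 without any other. It was 22 with DESeq2 (2.61% of all genes), 18 with library totals (1.09%), 17 with at least 10 counts in every library (1.33%) and 15 with the GC trend removed (0.671%). Strain, batch and Cre coverage differ between these tissues and cannot be told apart from the tissue.

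At the level of transcripts in MEF RNA, 12 of 118 tested transcripts of these genes rose in Hbs1l cKO against 0.734% of all transcripts tested (edgeR). In Pelo cKO 10 of 115 fell against 1.64%, and 2 of 123 rose in the libraries labelled Upf2 against 4.37%. Those annotated as nonsense-mediated decay targets were few. 1 of 9 rose in the libraries labelled Upf2, Cenpa-202 (0.96), against the 14.7% of all such transcripts given above. In Hbs1l cKO 1 of 8 rose, Ccna2-203 (1.13), against 0.261%, and in Pelo cKO none of 8 was called. Without any 1 library the counts for Hbs1l cKO and Pelo cKO were 0. For the libraries labelled Upf2 the count was 0 without control replicate 2 or without their replicate 2 or 3, and 1 without any other.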

How the data were processed

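Ribosome-protected fragments and, in MEFs, mRNA were sequenced by the authors. The deposited footprint tables hold counts per gene, made by the authors with bowtie2 2.2.3 (rRNA removal), HISAT2 2.1.0 on mm10 and featureCounts on coding sequences. The deposited RNA tables hold kallisto 0.42.4 estimated counts and TPM per transcript, per the authors' notes. The 48 genes and all lists were chosen with earlier results of these data known. The transcripts' estimated counts were added up by gene and taken to whole numbers, and 100 histone-prefixed rows were left out. Each comparison was fitted over all genes with edgeR 4.0.16 (R 4.3.3): filterByExpr, TMM factors, glmQLFit and glmQLFTest, Benjamini-Hochberg adjustment over all genes, and a call at an adjusted p of at most 0.05. CPM use TMM-scaled totals. Translational efficiency was the interaction of mutation and library type. The SE is the fold change divided by the square root of F. Scripts were tested on simulated data. Alternatives were DESeq2 1.42.0, RLE factors, library totals, other filters, a replicate block, limma 3.58.1 on log2(TPM + 1), leaving out each library, and removal of a GC trend. Named were 12 genes that stand for the roles (Cdk1, Ccnb1, Plk1, Aurkb, Bub1b, Cdc20, Kif11, Ndc80, Top2a, Prc1, Mki67, Cenpf), up to 6 called genes of largest change each way, and exceptions. Other names were picked after their values were seen.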

Additional observations from a re-analysis of the deposited data

Results flagged for a closer look

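The difference of effects between genotypes or tissues, tested in edgeR as an interaction, picked out 3 groups of values. Between the libraries labelled Upf2 and Pelo cKO, 1 gene passed, Cenpf, with a footprint rise larger by 0.42 in the former. Between embryos and MEFs lacking Hbs1l, 17 genes passed, all with the lower value in embryos. Those named by rule were Ccnb1 (−0.94), Plk1 (−0.92), Bub1b (−0.73), Cdc20 (−0.83), Espl1 (−1.30), Aurkb (−1.24), Birc5 (−1.02), Cenpa (−0.95), Spc24 (−1.60) and Ncapd2 (−0.97). Between embryos and cerebella, 7 passed, again lower in embryos, among them Cdk1 (−1.49), Ccnb2 (−1.49), Plk1 (−1.59), Espl1 (−1.97), Aurkb (−1.92) and Spc24 (−1.59). Ccnb2, Plk1, Espl1, Aurkb, Birc5 and Spc24 passed in both tissue comparisons, which share the embryo libraries. No group here had more than 3 samples, so single samples were not flagged by distance from their group, beyond the single libraries named in the text.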

How the results depend on the processing

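Of 4687 refits of called genes, 4409 stayed called, 278 lost the call and 0 changed sign. Beside the edgeR counts in the text, DESeq2 called 1 gene lower in embryos, 40 higher in cerebella, 1 higher in Pelo cKO RNA, 6 lower in the RNA labelled Upf2, 5 higher in Hbs1l cKO translational efficiency and 22 lower in embryo against cerebellum. With library totals the counts were 0 higher in embryos, 0 lower in the RNA labelled Upf2 and 18 lower in embryo against cerebellum. That scaling moved the median of all genes to 0.10 in cerebella and −0.14 in embryo against cerebellum, and the higher share of all calls from 66.2% to 82.1% in the RNA labelled Upf2, from 56.3% to 42.1% in embryo against MEF and from 36.4% to 15.3% in embryo against cerebellum. RLE factors gave 1 higher in Pelo cKO RNA, and moved the higher share of the few calls in Hbs1l cKO translational efficiency from 50% to 66.7%. A filter of at least 10 counts in every library gave 1 higher in Pelo cKO RNA, 1 lower in Upf2 against Pelo and 17 lower in embryo against cerebellum. No filter gave 1 lower in embryos, and 2 higher and 10 lower in the RNA labelled Upf2. Limma on log2(TPM + 1) gave 15 higher in Hbs1l cKO RNA, 11 lower in Pelo cKO RNA with a median of −0.18, and 0 lower in the RNA labelled Upf2. One fit over all MEF footprints gave 2 higher in Upf2 against Pelo. With the GC trend removed, chosen after seeing the data, the counts were 0 higher in embryos, 40 higher in Hbs1l cKO RNA, 2 higher and 2 lower in the RNA labelled Upf2, 28 lower in embryo against MEF and 15 lower in embryo against cerebellum, and the Pelo cKO RNA median was −0.20. Replicate numbers did not pair the samples. A replicate block gave 1 lower in embryos, 2 lower in the RNA labelled Upf2, 2 higher in Hbs1l cKO translational efficiency and 0 higher in Upf2 against Pelo. The cause of these moves was not tested.

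Leaving out 1 library gave 0 to 16 higher and 0 to 5 lower in embryos, 0 to 15 higher in cerebella, 46 to 48, 42 to 47 and 43 to 47 higher in Hbs1l cKO, Pelo cKO and Upf2-labelled MEF footprints, and 1 to 2 higher and 0 to 2 lower in the RNA labelled Upf2. In translational efficiency it gave 0 to 3 higher in Hbs1l cKO, and a median of 0.89 to 1.19 in Pelo cKO. In the differences it gave 0 to 2 higher and 0 to 1 lower in Upf2 against Pelo, 10 to 27 lower in embryo against MEF and 1 to 24 lower in embryo against cerebellum. For transcripts it gave 0 to 0 higher in Hbs1l cKO, 0 to 0 lower in Pelo cKO and 0 to 1 higher in the RNA labelled Upf2. A lone Pelo cKO RNA library was assumed to vary like the controls.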
